A study of Brachypodium distachyon with 24 samples.

Results

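Gene expression was compared between the F1 hybrid of 2 inbred accessions of the grass Brachypodium distachyon and the accessions themselves, for the genes that differed between Bd3-1 and Bd21 but whose 2 alleles were equally abundant in the F1 hybrid. The RNA came from leaves, and each library was divided by the authors into reads of the Bd21 allele and reads of the Bd3-1 allele. There were 5 F1 hybrid libraries under drought and 5 under control, 3 Bd3-1 libraries under drought and 5 under control, and 3 Bd21 libraries under drought and 3 under control. Soil water was lowered to 55% of field capacity over 6 days in drought, starting on day 33, and was held at 85% in control. The accessions are inbred lines, and every F1 hybrid plant came from a cross with Bd3-1 as the mother and Bd21 as the pollen parent. Of the Bd3-1 control plants, 2 were harvested with the F1 hybrid plants, while the other accession plants came from a separate main experiment. The labels do not say which Bd3-1 control plants these were, so generation and experiment cannot be told apart in any comparison of the F1 hybrid with the accessions.

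A difference in transcript level between inbred lines can arise in cis or in trans. A cis difference lies in the regulatory sequence of the gene itself and acts on the allele that carries it, so it is still seen between the alleles inside a hybrid cell. A trans difference lies in another factor, such as a transcription factor or an upstream signal, which reaches both alleles of a hybrid alike. Genes whose accessions differ while the F1 alleles are alike are therefore the usual candidates for trans regulation.

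Of 32439 genes, 3403 could be followed by allele: in each of the 14 accession libraries the estimated count of the library's own allele was above 1 and that of the opposing allele was under 20% of the sum. Levels were expressed as CPM, the count scaled to the library's total over both alleles. In 252 of the 3403 genes the mean own-allele CPM of the 8 Bd3-1 libraries and of the 6 Bd21 libraries differed at least 2-fold. In 1927 genes the mean CPM of the Bd3-1 allele over that of the Bd21 allele in the 10 F1 hybrid libraries lay within 0.3 of 0 on the log2 scale. Both criteria were met by 38 genes, which are described here. The difference between the accessions and the F1 allele ratio therefore chose these genes and are given as descriptions, with no test. Among the 252 genes with a 2-fold difference, 15.1% had F1 alleles within this limit, against 56.6% of all 3403 genes.

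**Figure D1:**
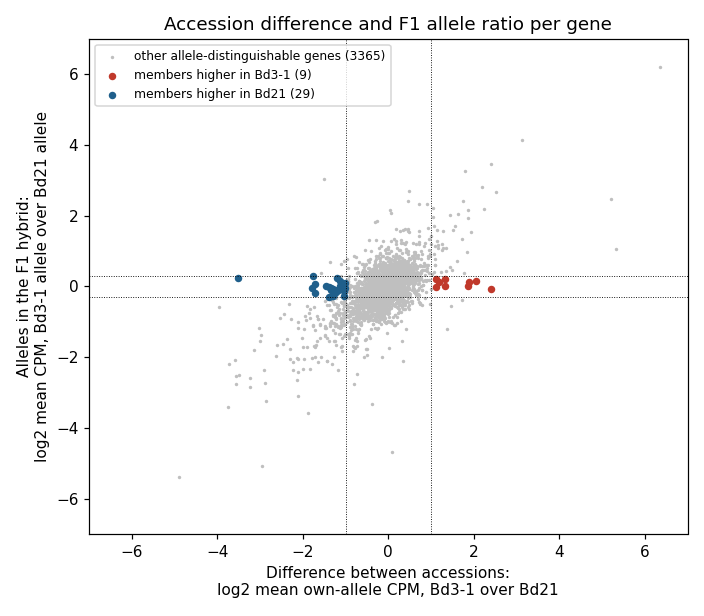
Log2 ratio of the mean own-allele CPM of Bd3-1 over Bd21 (x axis) and log2 ratio of the mean CPM of the Bd3-1 allele over the Bd21 allele in the F1 hybrid (y axis) for the 3403 genes that could be followed by allele. The 38 members (9 higher in Bd3-1, 29 higher in Bd21) lie outside the vertical dotted lines at 2-fold and between the horizontal dotted lines at 0.3, which are the limits that chose them.

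Total counts were between 10607196 and 38713326 in the F1 hybrid libraries, between 17418646 and 42354206 in Bd3-1 and between 6905973 and 30224270 in Bd21. No pair of replicates was alike enough to be a single library, since the lowest chi-square per degree of freedom over 39 replicate pairs was 17.4. The TMM factors, which scaled the totals in the fits but not the CPM, were lowest in F1 control replicates 1 and 5. They were 0.663 and 0.780 there, and between 0.845 and 1.18 in the accessions. By other measures, 3 sets of libraries stood apart. Bd21 drought replicate 2 and Bd21 control replicate 1 had the lowest totals. Bd3-1 control replicate 1 was the highest Bd3-1 library in 5 of the members that were higher in Bd3-1, and control replicate 4 was the next highest in 4 of these 5. In F1 drought replicates 4 and 5 and F1 control replicate 2 the allele estimates differed over 8-fold in 375, 471 and 416 of the 3403 genes, against 36 to 200 genes in the other 7 F1 plants. The identifiers in the file carry no gene names and 0 of them were found among the 31335 genes of the reference table, so leaf markers could not be checked by name and a function is given only for the 5 members that the study annotates.

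The members were not stable to the choice of libraries. When each library was left out in turn, between 34 and 51 genes met both criteria, and 11 of the 38 members met them in every one of the 24 settings. Without Bd3-1 control replicates 1 and 4, 25 of the 38 members still met them. Without the Bd21 pair of lowest totals it was 29, and without the 3 uneven F1 plants it was 22. With all 7 of these libraries left out, 11 members remained. When medians replaced means, 15 of the 38 members still met the criteria, and when control and drought libraries were taken alone, 8 members met them in both conditions. The criteria were met by 4 members in every one of these leave-outs and with medians, namely Bradi2g16560, Bradi3g28350 and Bradi3g38950, which were higher in Bd21, and Bradi3g14840, which was higher in Bd3-1.

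Of the 38 members, 9 were higher in Bd3-1 and 29 were higher in Bd21. All 252 genes with a 2-fold difference leaned the same way, with 57 higher in Bd3-1 and 195 higher in Bd21. The 9 members higher in Bd3-1 were more abundant: their mean in Bd3-1 lay between 21.3 and 756 CPM (median 113 CPM), and in Bd21 between 4.01 and 181 CPM (median 52.5 CPM). The 29 had means between 0.521 and 45.3 CPM in Bd3-1 (median 5.97 CPM) and between 2.76 and 114 CPM in Bd21 (median 12.6 CPM). The fold difference was 2.53 at the median in the 9, with a range of 2.16 to 5.30, and 2.38 at the median in the 29, with a range of 2.02 to 11.4. The direction was the same in drought alone and in control alone for 8 of the 9 and for 28 of the 29. The exceptions were Bradi3g42350 and Bradi4g06000. Both conditions are part of the means that chose the members, so nothing is read from this agreement. The difference was at least 2-fold in drought and in control for 4 of the 9 and for 15 of the 29. By the number in their identifiers, 10 members were on chromosome 1, 7 on chromosome 2, 8 on chromosome 3, 9 on chromosome 4 and 4 on chromosome 5.

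The libraries of Bd3-1 and Bd21 did not overlap in 4 of the 38 members, and the share without overlap was 5.00% of all 3403 genes. Since this is the contrast that chose the members, nothing is read from that count. The within-group standard deviation of log2 CPM was 0.64 at the median of the members in Bd3-1 and 0.66 in Bd21. Over all 3403 genes it was 0.32 in each accession. The members can be set beside the 127 genes in which accessions and F1 alleles both differed at least 2-fold in the same direction, the pattern of a cis difference. There the within-group standard deviation was 0.46 in Bd3-1 and 0.42 in Bd21, and 77 of the 127 genes had no overlap between the accessions. These values are descriptions, because both sets were chosen by the same measurements.

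**Figure D2:**
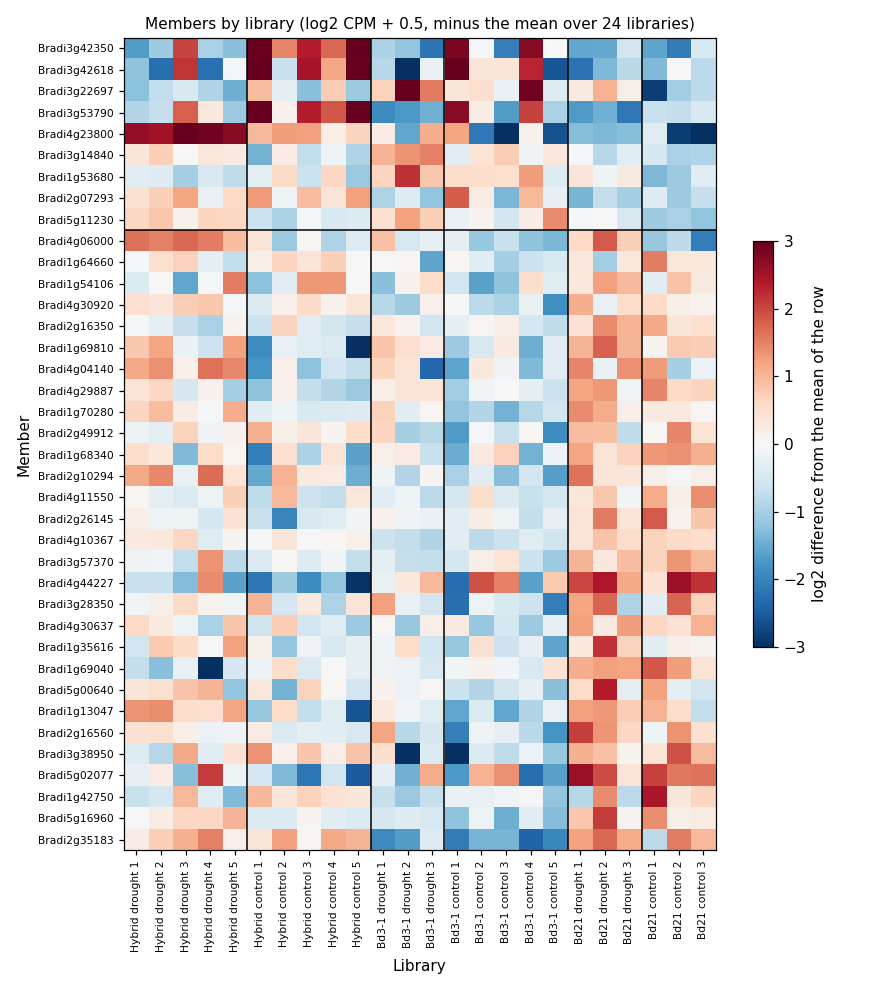
Level of each member in each of the 24 libraries, as log2 (CPM + 0.5) minus its mean over the libraries, with both alleles summed in the F1 hybrid and the own allele in the accessions. Members are ordered by log2 Bd3-1 over Bd21, with the 9 that were higher in Bd3-1 above the horizontal line, and vertical lines separate the 6 groups. Bd3-1 control replicates 1 and 4 are high in Bradi3g42350, Bradi3g42618 and Bradi3g53790.

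The member named in the study is Bradi1g53680, a predicted zinc transporter. From allele-specific expression in the same data, the study proposes that a trans-acting variant controls Bradi1g53680. In its larger main experiment, the study also infers that a predicted serine-type endopeptidase gene regulates Bradi1g53680, with a stable relation over all conditions. There it gives the 2 genes as an example of a pair with G × E, a drought response that differs between the accessions. Its own-allele CPM was 324, 953 and 365 in Bd3-1 under drought and 307, 299.8, 292, 499.8 and 159 in Bd3-1 under control. In Bd21 it was 273, 191 and 251 under drought and 81.2, 98.4 and 163 under control. Only the lowest Bd3-1 control library fell within the range of Bd21, and Bd3-1 drought replicate 2 was far above all others. The means were 400.1 ± 242 CPM in Bd3-1 (SD, n = 8) and 176 ± 77.99 CPM in Bd21 (SD, n = 6), a 2.27-fold difference. In the F1 hybrid the Bd3-1 allele had 90.5 ± 45.2 CPM and the Bd21 allele 82.9 ± 36.2 CPM (SD, n = 10 each), and the per-plant log2 ratio lay between -0.29 and 0.81. The sum of both alleles in the F1 hybrid was 165, 159, 105, 152 and 123 CPM under drought and 169.5, 309, 133, 323 and 95.5 CPM under control. Over both conditions the F1 hybrid thus had 173 ± 79.4 CPM, close to the pooled mean of Bd21 and below that of Bd3-1. The position differed by condition. Under drought the F1 mean of 141 CPM was below both Bd21 (238 CPM) and Bd3-1 (547 CPM). Under control the F1 mean of 206 CPM lay between Bd21 (114 CPM) and Bd3-1 (312 CPM). Against the mid-parent, the mean of the 2 accessions on the log2 scale, the difference was -0.52 (SE 0.22) and was not called (edgeR quasi-likelihood test, Benjamini-Hochberg adjusted p = 0.171).

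Primary and secondary cell wall biogenesis and cellulose synthesis, by which plant cells build and thicken their walls, are the annotation of a co-expressed group of genes defined in the study. That group holds 30 genes, and 4 of them were members: Bradi2g16560, Bradi2g49912, Bradi3g28350 and Bradi3g38950. In all, 6 genes of the group could be followed by allele, and the group was looked up after the members were known, so the count of 4 is not independent evidence. Moreover, the group was defined on plants of the same main experiment as the accession libraries. All 4 were higher in Bd21, by 2.75-fold, 2.18-fold, 2.44-fold and 3.28-fold.

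Bradi2g16560 had the highest mean of the 4 in Bd21. Its own-allele level was 119, 29.1 and 36.7 CPM in Bd3-1 under drought and 12.1, 47.0, 44.1, 29.4 and 14.8 CPM under control. In Bd21 it was 222, 130.3 and 80.5 CPM under drought and 47.4, 133 and 71.7 CPM under control. Bd3-1 drought replicate 1 was within the range of Bd21, and every other Bd3-1 library was below every Bd21 library. In the F1 hybrid the sum of the alleles was 71.8, 73.3, 59.2, 46.4 and 47.5 CPM under drought and 61.5, 38.8, 42.5, 41.0 and 37.0 CPM under control. The F1 hybrid plants were close to each other, and 9 of 10 had a log2 allele ratio within 1. The exception was F1 control replicate 2, with 2.26. The F1 alleles averaged 26.04 ± 5.32 CPM (Bd3-1 allele) and 25.8 ± 10.8 CPM (Bd21 allele).

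Bradi3g28350 overlapped more between the accessions. It had 91.09, 33.3 and 26.4 CPM in Bd3-1 under drought and 7.71, 34.7, 27.9, 24.9 and 8.83 CPM under control, against 89.2, 131 and 20.2 CPM in Bd21 under drought and 31.1, 132 and 62.6 CPM under control. Its F1 alleles averaged 21.5 ± 9.26 CPM (Bd3-1 allele) and 22.6 ± 9.57 CPM (Bd21 allele), and 9 of 10 plants were within 1. Bradi3g38950 averaged 10.3 ± 7.29 CPM in Bd3-1 and 33.8 ± 16.2 CPM in Bd21, with F1 alleles at 12.0 ± 5.99 and 11.5 ± 6.41 CPM for the Bd3-1 and the Bd21 allele. Bradi2g49912 averaged 41.8 ± 25.3 CPM in Bd3-1 and 91.4 ± 44.4 CPM in Bd21, with F1 alleles at 37.6 ± 13.5 and 33.6 ± 13.7 CPM for the Bd3-1 and the Bd21 allele.

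The other 26 genes of the cell wall group were measured in the same libraries. Their summed level was 508 to 685 CPM in the F1 hybrid under drought and 316 to 488 CPM under control. In Bd3-1 it was 376 to 1089 CPM under drought and 113 to 390.2 CPM under control, and in Bd21 it was 566 to 1226 CPM under drought and 520.1 to 889 CPM under control. Bd3-1 control replicates 1 and 5, with the lowest sums in the data, were also the libraries with the lowest level of Bradi2g16560, and Bd3-1 drought replicate 1 was the highest Bd3-1 library in both. The part of this in the difference between the accessions was not tested.

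**Figure D3:**
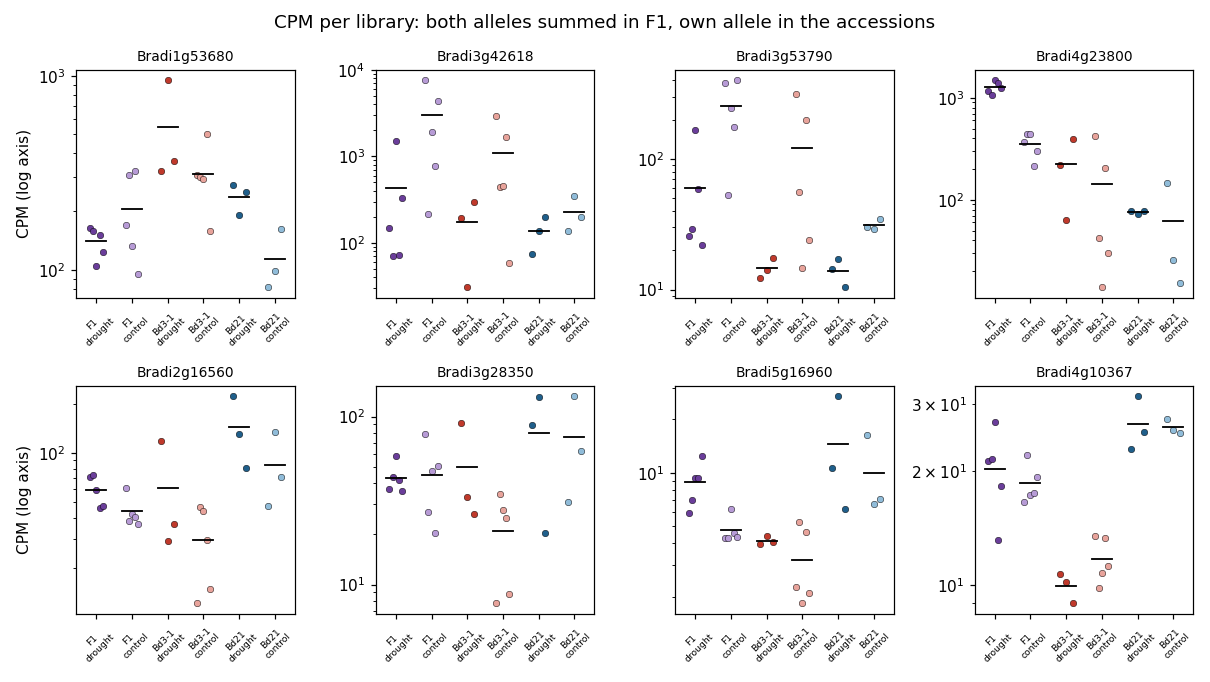
CPM per library on a log axis for 8 members, as the sum of both alleles in the F1 hybrid and as the own allele in Bd3-1 and Bd21. Points are libraries and lines are group means. The 2 highest Bd3-1 control points of Bradi3g42618, Bradi3g53790 and Bradi4g23800 are replicates 1 and 4, and the libraries of the accessions do not overlap for Bradi5g16960 and Bradi4g10367.

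Among the 9 members that were higher in Bd3-1, 5 met the 2-fold criterion only with Bd3-1 control replicates 1 and 4 included. Bradi3g42618 had 2898, 443, 451, 1678 and 58.1 CPM in Bd3-1 control replicates 1 to 5 and 191, 30.7 and 297 CPM in Bd3-1 under drought. In Bd21 it had 74.11, 136 and 197 CPM under drought and 138, 343 and 199.8 CPM under control. Replicates 1 and 4 were above every other accession library, and the remaining Bd3-1 libraries overlapped with Bd21. The log2 difference was 2.06 with all libraries and 0.43 without these 2.

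The same 2 libraries were the highest accession libraries of Bradi3g53790, with 316 and 198 CPM against 12.3 to 56.0 CPM in the other Bd3-1 libraries and 10.4 to 34.5 CPM in Bd21. Without them the log2 difference was 0.03, against 1.86 with them. Bradi3g42350 had 71.9 and 66.7 CPM in them, 1.73 to 9.82 CPM in the other Bd3-1 libraries and 1.88 to 6.88 CPM in Bd21, and its log2 difference was 0.39 without them and 2.41 with them. For Bradi2g07293 the log2 difference was 0.31 without them and 1.12 with them. For Bradi4g23800 it was 0.89 without them and 1.34 with them, so most of it remained. Its Bd3-1 drought replicate 3, with 396 CPM, was near control replicate 1, with 424 CPM, and above control replicate 4, with 204 CPM. The other 4 members that were higher in Bd3-1 met the 2-fold criterion without the 2 libraries. In the F1 hybrid under control, Bradi3g53790 had 53.4 to 401 CPM and Bradi3g42350 had 27.5 to 88.9 CPM, ranges that hold the values of both libraries. The same held for Bradi3g42618, with 216 to 7599 CPM. It did not hold for Bradi2g07293, with 168 to 450 CPM against 661 and 373 CPM in the 2 libraries. Nor did it hold for Bradi4g23800, with 215 to 445 CPM against 424 and 204 CPM. The range of Bradi3g42618 also held Bd3-1 control replicates 2 and 3 and drought replicate 3, with 443, 451 and 297 CPM. It held Bd21 control replicate 2 too, with 343 CPM. The range of Bradi3g53790 also held Bd3-1 control replicate 2, with 56.0 CPM. That of Bradi3g42350 held no other accession library. What sets Bd3-1 control replicates 1 and 4 apart was not tested. Since the labels do not say which 2 Bd3-1 control plants were harvested with the F1 hybrid, accession and experiment cannot be told apart in these 5 members. Over all 3403 genes, 13.3% had their highest Bd3-1 library in control replicate 1 or 4.

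The other members that were higher in Bd3-1 were Bradi1g53680, described above, Bradi3g14840, Bradi3g22697 and Bradi5g11230. Bradi3g14840 had 136, 167 and 187 CPM in Bd3-1 under drought and 52.9, 87.7, 109, 61.3 and 83.2 CPM under control, against 62.9, 35.9 and 50.7 CPM in Bd21 under drought and 45.4, 33.4 and 34.3 CPM under control. All but 2 of its Bd3-1 libraries, control replicates 1 and 4, were above the highest Bd21 library. The F1 alleles averaged 32.9 ± 15.6 CPM (Bd3-1 allele) and 32.8 ± 16.7 CPM (Bd21 allele). Bradi3g22697 was high in Bd3-1 drought replicate 2 (266 CPM) and Bd3-1 control replicate 4 (179.9 CPM), with 18.2 to 70.9 CPM in the other Bd3-1 libraries and 2.91 to 50.0 CPM in Bd21. Bradi5g11230 had 52.5 to 205 CPM in Bd3-1 and 33.4 to 76.9 CPM in Bd21.

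The 4 members without overlap of the accessions were all higher in Bd21. Bradi4g10367 was the most even of them, with 10.7, 10.2 and 8.95 CPM in Bd3-1 under drought and 13.5, 9.82, 10.8, 13.3 and 11.2 CPM under control. In Bd21 it had 22.8, 31.4 and 25.3 CPM under drought and 27.4, 25.6 and 25.2 CPM under control. The means were 11.1 ± 1.58 CPM (Bd3-1) and 26.3 ± 2.92 CPM (Bd21). Its sum over both alleles in the F1 hybrid was 19.3 ± 3.75 CPM, between the accessions, and its log2 allele ratio lay between -1.27 and 0.44 in 9 plants and was 2.72 in F1 control replicate 2. Without the 3 uneven F1 plants it no longer met the limit of 0.3.

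Bradi5g16960 had 1.83 to 5.26 CPM in Bd3-1 and 6.21 to 27.0 CPM in Bd21. Its highest Bd21 values were those of the Bd21 pair of lowest totals, 27.0 and 16.3 CPM, and without these the log2 difference moved to -1.10, against -1.79 with them. Bradi4g30637 had 2.14 to 6.51 CPM in Bd3-1 and 6.52 to 13.3 CPM in Bd21, so that its accessions were separated by a narrow margin. Bradi2g16350 had 4.25 to 9.52 CPM in Bd3-1 and 9.78 to 20.7 CPM in Bd21. Of the 29 members that were higher in Bd21, 15 had their highest Bd21 library in the Bd21 pair of lowest totals, and so did 50.5% of all 3403 genes.

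The largest difference was that of Bradi2g35183, which rested on few counts in Bd3-1, 1.24 to 31.2 estimated counts per library. It had 0.277, 0.416 and 1.75 CPM in Bd3-1 under drought and 0.182, 0.607, 0.619, 0.0523 and 0.266 CPM under control. In Bd21 it had 6.28, 9.11 and 5.86 CPM under drought and 1.19, 7.97 and 5.29 CPM under control. Bd21 control replicate 1 was below the highest Bd3-1 library, and the other 5 Bd21 libraries were above all Bd3-1 libraries. In the F1 hybrid the Bd3-1 allele had 2.54 ± 1.30 CPM (SD, n = 10), above each of the 8 Bd3-1 libraries on average, where the mean was 0.521 ± 0.533 CPM (SD, n = 8). The Bd21 allele had 2.16 ± 1.03 CPM in the F1 hybrid.

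The members nearest to a 2-fold difference were Bradi4g06000 (2.02-fold) and Bradi1g64660 (2.02-fold). The nearest genes outside were Bradi1g78210 (1.996-fold) and Bradi3g09240 (1.99-fold). The members nearest to the F1 limit were Bradi5g00640 (log2 -0.29) and Bradi1g42750 (log2 0.29), and the nearest genes outside were Bradi3g45648 (log2 0.31) and Bradi2g01330 (log2 -0.32).

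Equality of the F1 alleles held for the mean over plants and less often for single plants. In 264 of the 380 combinations of a member and a plant the log2 allele ratio, computed with a pseudocount of 0.5, was within 1, and in 139 it was within 0.3. In 32 it was past 8-fold, and 17 of these 32 came from the 3 uneven plants. At least 1 plant was past 8-fold in 17 members, and 7 members were past 8-fold in both directions. All 10 plants were within 1 in 4 members, Bradi1g53680, Bradi2g07293, Bradi3g42618 and Bradi4g23800, which are among the 9 members that were higher in Bd3-1. The share was 35.0% among the 1927 genes that met the F1 limit.

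The widest was Bradi4g44227, with log2 ratios of 1.65, -9.51, -9.28, -0.27 and 0.00 in F1 drought plants 1 to 5 and of 1.80, 0.00, 8.10, -0.67 and 7.38 in F1 control plants 1 to 5. Nearly all reads were thus assigned to the Bd21 allele in 2 drought plants and to the Bd3-1 allele in 2 control plants. In Bradi5g00640 the log2 ratio was -8.25 in F1 drought replicate 4 and 7.55 in F1 control replicate 5. Ratios of 0.00 came from equal estimates for both alleles (within 1e-06 counts), which occurred in 7 of the 380 combinations (1.84%), in 5 members, against 0.749% over the 3403 genes. The standard deviation of the log2 ratio over plants was 1.18 at the median of the members, 0.76 over all 3403 genes and 2.03 in the 127 genes whose F1 alleles differed. The depth behind the ratios was low in part: 17 members had under 50 counts over both alleles in at least 1 F1 plant.

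**Figure D4:**
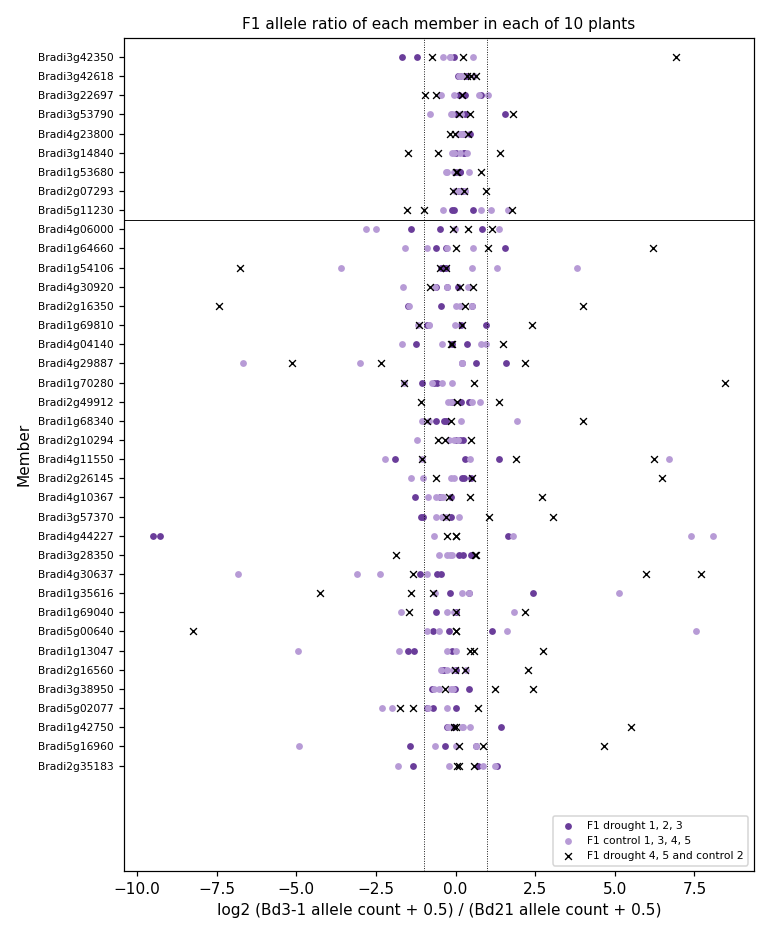
Log2 ratio of the Bd3-1 allele over the Bd21 allele for each member in each of the 10 F1 hybrid plants, with a pseudocount of 0.5. Dotted lines are at -1 and 1, crosses are the 3 plants with the most uneven allele estimates, and members are ordered by their accession difference with the 9 that were higher in Bd3-1 at the top. Points spread from -9.51 to 8.46.

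The sum of both F1 alleles was not used to choose the members, but the accession means it is set against were. Since these means were at least 2-fold apart by the rule, a place between them is favoured. No share over all genes is given for the positions, so the counts are descriptions. The mean sum of both alleles in the F1 hybrid lay between the accession means in 23 members, above both in 7 and below both in 8. Of the 23, 14 were nearer to the higher accession and 9 to the lower one on the log2 scale. Of the 29 members that were higher in Bd21, 21 were between, 6 below and 2 above. Of the 9 members that were higher in Bd3-1, 2 were between, 2 below and 5 above, and these 5 were the members that fell short of 2-fold without Bd3-1 control replicates 1 and 4.

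Against the mid-parent, 6 members rose in the F1 hybrid and 2 fell at an adjusted p under 0.05 (edgeR quasi-likelihood test on rounded sums of both alleles, over 22629 genes). The backgrounds were 4.54% of all genes higher and 2.06% lower, 6.61% in either direction. Most of these 22629 genes could not be followed by allele, and no share over the 3403 genes is given. The mid-parent also rests on the accession libraries that chose the members. No excess is therefore read from these counts. The median log2 difference was 0.17 over the members and 0.05 over all genes. Bradi4g23800 rose most, by 2.74 on the log2 scale (SE 0.47, adjusted p = 0.000634). It had 1168, 1071, 1494, 1386 and 1249.7 CPM in the F1 hybrid under drought and 366, 445, 439, 215 and 299 CPM under control, against 13.9 to 424 CPM in Bd3-1 and 15.3 to 146 CPM in Bd21. All F1 drought libraries were above all accession libraries, while the F1 control libraries overlapped with Bd3-1. Bradi3g42618 rose by 2.32 (SE 0.65, adjusted p = 0.0331) and Bradi3g53790 by 2.29 (SE 0.47, adjusted p = 0.00460).

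The other members that were higher in the F1 hybrid, named after their values were seen, were Bradi3g42350 (2.17, SE 0.55, adjusted p = 0.0186), Bradi2g35183 (1.58, SE 0.37, adjusted p = 0.0124) and Bradi2g07293 (1.38, SE 0.29, adjusted p = 0.00576), with log2 differences and edgeR tests as before. All but Bradi2g35183 are members that fell short of 2-fold without Bd3-1 control replicates 1 and 4. Without these 2 libraries 9 members were higher and 2 lower, and all 8 calls were kept, and without the Bd21 pair of lowest totals 4 were higher and 1 lower.

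Bradi4g44227 fell by 2.12 on the log2 scale against the mid-parent (SE 0.43, edgeR adjusted p = 0.00452). It had 17.3, 17.4, 10.95, 75.08 and 8.85 CPM in the F1 hybrid under drought and 5.76, 13.0, 7.13, 11.9 and 3.22 CPM under control, against 5.34 to 106 CPM in Bd3-1 and 37.7 to 167 CPM in Bd21. Except for F1 drought replicate 4 the F1 hybrid was below every Bd21 library. Bradi1g69040 fell by 0.86 (SE 0.24, edgeR adjusted p = 0.0325), with 1.33 to 23.0 CPM in the F1 hybrid, 11.02 to 21.3 CPM in Bd3-1 and 20.8 to 58.2 CPM in Bd21. Of the 8 calls, 5 held without each library in turn. That of Bradi1g69040 was lost without Bd21 control replicate 1, Bd3-1 drought replicate 2, F1 drought replicate 2, or either of F1 control replicates 3 and 5 (adjusted p between 0.00660 and 0.0923 over all alternatives), and that of Bradi3g42350 without F1 drought replicate 3 (adjusted p = 0.109, with a range of 0.000564 to 0.109 over all alternatives). That of Bradi3g42618 was lost without any 1 of 9 libraries, 3 of them F1 hybrid, 4 Bd21 and 2 Bd3-1 libraries, with an adjusted p between 0.00654 and 0.186 over all alternatives.

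**Figure D5:**
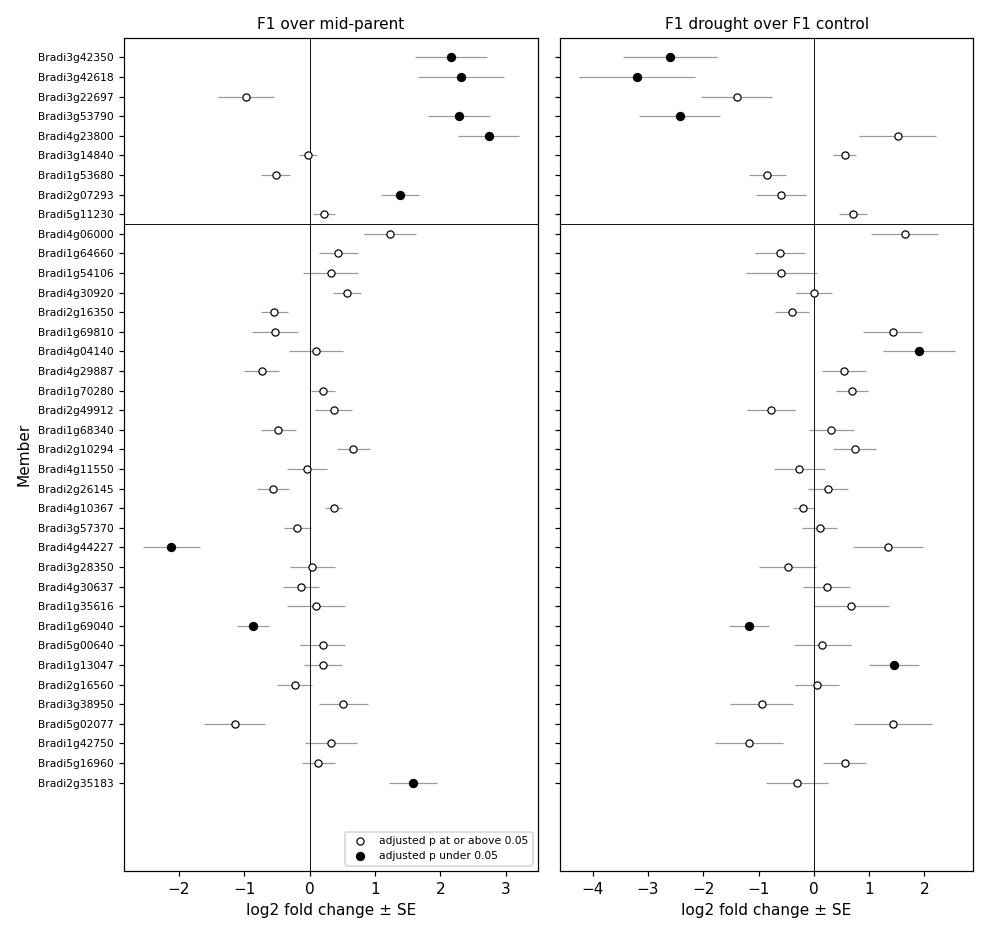
Log2 fold change and its SE for each member in the F1 hybrid over the mid-parent (left) and in F1 drought over F1 control (right), from the edgeR fit over 22629 genes. Filled points have an adjusted p under 0.05: 6 higher and 2 lower on the left, 2 higher and 4 lower on the right. Members are ordered as in the plot of allele ratios by plant.

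Under drought, 2 members rose and 4 fell in the F1 hybrid at an adjusted p under 0.05 (edgeR). The backgrounds were 7.58% of the 22629 genes higher and 7.31% lower, 14.9% in either direction. Bradi4g04140 had 7.70, 9.05, 3.60, 10.9 and 9.52 CPM in the F1 hybrid under drought and 0.568, 3.60, 1.10, 2.00 and 1.74 CPM under control. It rose by 1.90 on the log2 scale (SE 0.65, adjusted p = 0.0487), with 1 library of each condition at 3.60 CPM. Bradi1g13047 had 16.1, 16.6, 8.87, 8.77 and 14.2 CPM under drought and 2.48, 8.99, 3.40, 4.54 and 0.582 CPM under control, and rose by 1.45 (SE 0.45, adjusted p = 0.0307).

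Bradi3g42618 fell by 3.21 on the log2 scale under drought in the F1 hybrid (SE 1.05, edgeR adjusted p = 0.0417). It had 149, 71.07, 1522, 72.4 and 331 CPM under drought and 7599, 216, 1931, 774 and 4343 CPM under control, and the conditions overlapped. Bradi3g42350 fell by 2.603 (SE 0.85, adjusted p = 0.0406), with 2.68, 4.34, 40.9, 4.70 and 3.77 CPM under drought and 78.11, 27.5, 51.3, 33.0 and 88.9 CPM under control. Bradi3g53790 fell by 2.43 (SE 0.73, adjusted p = 0.0265), with 25.5, 29.1, 166, 59.1 and 22.1 CPM under drought and 384, 53.4, 245, 176 and 401 CPM under control. In all 3 members F1 drought replicate 3 was the highest drought plant, inside the range of control. Bradi1g69040, named after its values were seen, fell by 1.17 (SE 0.36, adjusted p = 0.0311).

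These calls depended on single plants and on the fit. The count of 6 fell to 0 without F1 drought replicate 1 or 2, to 1 without F1 drought replicate 5 or either of F1 control replicates 1 and 5, to 2 without F1 drought replicate 4 and to 3 without F1 control replicate 3. It was 8 without F1 drought replicate 3. Without the 3 uneven plants it was 2, of which 1 was among the 6. With only the F1 libraries in the fit, 4 members were called, of which Bradi3g53790 and Bradi4g04140 were among the 6. The call of Bradi4g04140 was lost in 12 of 17 alternatives. DESeq2 called 10 members, and 18.5% of all genes.

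In the accessions alone no member passed the threshold under drought (edgeR, adjusted p under 0.05). In Bd3-1 the background was 0.433% of genes higher and 0.287% lower (0.720% in either direction), 6 members and 12.4% of genes had an unadjusted p under 0.05, and DESeq2 called 2 members higher and 3 lower, with 3.21% of genes in either direction. In Bd21 it was 0.0751% higher and 0.0221% lower (0.0972% in either direction), 4 members and 8.75% of genes had an unadjusted p under 0.05, and DESeq2 called 1 member higher, with 0.973% of genes in either direction. Some members had large fold changes without a call. The log2 difference of drought over control in Bd3-1 was -3.36 for Bradi3g53790 (SE 0.95, adjusted p = 0.0949) and -3.47 for Bradi3g42350 (SE 1.10, adjusted p = 0.144), where the control group holds replicates 1 and 4. Bradi3g14840 was at 0.87 in Bd3-1 (SE 0.23, adjusted p = 0.0769). In Bd21, Bradi4g06000 was at 3.05 (SE 0.85, adjusted p = 0.219). For Bradi1g53680 the log2 difference in drought was -0.84 (SE 0.33, adjusted p = 0.0944) in the F1 hybrid, 0.58 (SE 0.38, adjusted p = 0.606) in Bd3-1 and 0.92 (SE 0.43, adjusted p = 0.557) in Bd21.

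No difference between drought responses was detected for any member. For G × E between the accessions, 0 of the 38 members and 0% of genes passed an adjusted p of 0.1 in edgeR, with 1 member and 3.40% of genes at an unadjusted p under 0.05, and 0 members and 0.0354% of genes called by DESeq2. The study gives Bradi1g53680 as a gene with G × E in its main experiment, which had many more plants per group. Here its difference of log2 responses, Bd3-1 minus Bd21, was -0.33 (SE 0.57). For the F1 response against the mean response of the accessions, 0 members and 0% of genes passed an adjusted p of 0.05, with 2 members and 7.43% of genes at an unadjusted p under 0.05, and 0 members and 0.0840% of genes called by DESeq2. These 2 members were Bradi1g53680 (difference of log2 responses -1.59, SE 0.44, adjusted p = 0.505) and Bradi3g22697 (-2.70, SE 0.85, adjusted p = 0.526). Their log2 differences in drought in the F1 hybrid were -0.84 and -1.40.

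The balance of the F1 alleles did not differ detectably between drought and control. An interaction of allele and drought in the F1 hybrid was tested on the 3403 genes. None of the 38 members passed an adjusted p of 0.1 in edgeR, where the background was 0.0294% of genes, and none was called by DESeq2, which called 0.118% of genes. An unadjusted p under 0.05 was found in 4 members and in 7.02% of genes. Of these members, Bradi5g11230 had the smallest p, with a log2 allele ratio that differed by -1.36 in drought (SE 0.45, adjusted p = 0.617). Bradi4g30637 differed by 2.62 (SE 1.16) and Bradi4g29887 by 2.46 (SE 0.98) in the other direction, and Bradi2g16350 by -1.90 (SE 0.83), with adjusted p-values of 0.694, 0.664 and 0.694. With standard errors of this size, only large shifts in allele balance could have been detected in these plants. This fit took the 2 alleles of an F1 plant as separate observations. With the plant as a block, no member passed an adjusted p of 0.1 in edgeR. An unadjusted p under 0.05 was then found in 2 members and in 142 of the 3403 genes.

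Members close to each other in the file's order were few. In all, 6 members had another member within 50 genes on the same chromosome. Bradi2g16350 and Bradi2g16560 were 25 genes apart, Bradi3g42350 and Bradi3g42618 were 31 genes apart, and Bradi4g30637 and Bradi4g30920 were 32 genes apart. The pair on chromosome 3 was high in Bd3-1 control replicates 1 and 4 and in F1 drought replicate 3, and so was Bradi3g53790, which is not near it. None of the genes named in the study for drought and ABA, the circadian clock, phenylpropanoids, primary metabolism, or NAC factors and chlorophyll was a member. Few of them could be followed by allele: 4 of 16 for drought and ABA, 3 of 7 for primary metabolism, 2 of 7 for NAC factors and chlorophyll, 0 of 11 for phenylpropanoids and 0 of 6 for the clock.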

How the data were processed

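Leaf RNA-seq libraries (stranded, poly(A)-selected) were sequenced for 24 plants. The authors built a diploid transcriptome from Bd3-1 variants against the Bd21 reference, and mapped reads to it with Bowtie 1.2.2. With emase, reads were then assigned to alleles, and the deposited values are the resulting expected counts, not normalized and not always whole, in 48 columns over 32439 genes (annotation v3.2). All columns were matched to labels, and 0 were left unmapped. How reads that do not distinguish the alleles were divided was not examined. In the accession libraries the opposing allele held 0.0184% of the sum at the median of the members. Near-identical gene copies are uncertain.

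The members and the gene lists were chosen with earlier results of these data known. Sums of both alleles were rounded and fitted in edgeR 4.0.16 (R 4.3.3), with TMM factors, quasi-likelihood tests, the 6 groups in 1 fit and only genes detected in more than 10 libraries. Allele by drought was fitted on the own-allele columns of the accessions and both F1 columns (34 in all). P-values were adjusted by Benjamini-Hochberg over all genes tested. DESeq2 1.42.0 was an alternative. The scripts were tested on simulated data. CPM use library totals. Replicates are the libraries of a group, and p-values measure the spread between them. In the allele fit both columns of an F1 plant entered as separate observations. Named members were the one the study names, those without overlap of the accessions, up to 3 per direction and contrast, and those at the limits; the cell wall members, the remaining Bd3-1-higher members and others said to be so were added after their values were seen.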

Additional observations from a re-analysis of the deposited data

Results flagged for a closer look

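Dixon's test at its 95% critical value was applied to the 66 groups of 5 libraries for 22 of the members named above, which were chosen after their values were seen, and 10 values stood apart. For normally distributed values, chance gives about 1 in 20 groups. The test was run on CPM without a log scale, and each of the 10 values was the highest of its group. No excess over chance is read from this count. Of the 10 values, 3 were in F1 drought replicate 3: Bradi3g42350 had 40.9 CPM there against 4.70 CPM in the next plant, Bradi3g42618 had 1522 CPM against 331 CPM, and Bradi3g53790 had 166 CPM against 59.1 CPM. In F1 drought replicate 4, Bradi4g44227 had 75.08 CPM against 17.4 CPM. In F1 control replicate 2, Bradi4g30637 had 9.34 CPM against 4.16 CPM and Bradi2g16350 had 12.2 CPM against 5.86 CPM. Bradi5g16960 had 6.28 CPM in F1 control replicate 3 against 4.60 CPM, and Bradi2g16560 had 61.5 CPM in F1 control replicate 1 against 42.5 CPM. In Bd3-1, Bradi3g22697 had 179.9 CPM in control replicate 4 against 34.3 CPM, and Bradi5g11230 had 205 CPM in control replicate 5 against 89.4 CPM. What sets these libraries apart was not tested.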

How the results depend on the processing

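The number of members was 38. It was 179 when the allele criterion was applied to accession means, 169 at 1.5-fold, 9 at 3-fold, 60 with an F1 limit of 0.5 and 71 with control libraries alone. It was 4 when every F1 plant had to be within 1 and 4 when the accessions could not overlap, both chosen after seeing the data. Leaving out each library gave 34 to 51. With library totals scaled by TMM factors it was 36, with 13 higher in Bd3-1 and 23 higher in Bd21. Of these 36 genes, 31 were among the 38. With drought libraries alone the log2 difference of Bradi3g42350 was -0.24, and with control libraries alone that of Bradi4g06000 was 0.62, each with its sign turned. The cause was not tested. For drought in the F1 hybrid, 6 members were called, 10 with DESeq2, 2 without the 3 uneven plants and 0 to 8 without each library. For drought in Bd21, 0 were called, 1 with DESeq2 and 0 without each library. In Bd3-1, 0 were called, 5 with DESeq2 and 0 to 2 without each library. Against the mid-parent, 8 members were called, 5 without the Bd21 pair of lowest totals and 6 to 11 without each library. For G × E, for the F1 response against the accessions and for allele by drought, 0 were called, and 0 without each library. Leave-outs of the 3 sets of libraries were chosen after seeing the data, and no fit with only the groups compared exists for contrasts that use all groups.

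Replicate numbers did not pair the samples: same-numbered libraries had correlations of -0.12 to 0.12 in their deviations from the group means. With the replicate number as a block, 5 members were called against the mid-parent and 4 for drought in the F1 hybrid, and no other count changed.

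Depth limits the low members: 4 members had under 10 counts of the own allele in at least 1 accession library, and 34 members were left when at least 10 were required.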
